A study of Mus musculus with 6 samples.

Results

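The expression of 10 mesenchymal progenitor and pericyte genes was examined in osteoblasts (OBs) of BMP-2-induced ectopic bone. The genes were *Pdgfra*, *Pdgfrb*, *Lepr*, *Ly6a*, *Thy1*, *Mcam*, *Cspg4*, *Prrx1*, *Nes* and *Rgs5*, chosen by name for their use as markers, and all 10 were found by symbol among the 23284 genes listed in each sample. Reporter-positive (ECFP+) cells of the *Col2.3*-ECFP strain were sorted from implants in 3 samples of day 10 and 3 samples of day 14, and both days carried the same reporter and the same stimulus. According to the methods, the mice were male and 12 to 16 weeks old, and each collagen sponge carried 2.5 μg of BMP-2. A fragment of the type I collagen promoter drives the cyan fluorescent protein in these mice, so the gate selects cells in which this promoter is active. The sort was also gated against CD45+ blood cells and dead cells. Collagenase was applied in 1 digestion for day 10 and in 2 digestions for day 14, and the effect of digestion and that of the day cannot be told apart. The titles place all later samples on day 14, while their descriptions give day 14, 15 and 16 for replicates 1, 2 and 3. The labels call the samples biological replicates, and the number of mice behind each sample is not given in the sources used here.

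Bone-forming cells are thought to arise from mesenchymal progenitors in the tissue around an implant and along its vessels, and the paper calls their origin in ectopic bone controversial. These progenitors carry the receptors for platelet-derived growth factor (PDGF), which drive their migration and growth, and are often isolated by surface antigens such as the product of *Ly6a*. Pericytes wrap capillaries, receive PDGF from the endothelium through *Pdgfrb*, and are recognised by *Rgs5*, *Cspg4*, *Mcam* and *Nes*. No single one of these genes is restricted to one cell type. *Thy1*, *Ly6a*, *Mcam* and *Nes* are also known from lymphocytes, endothelium or neural cells, and *Cspg4* from cartilage.

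Values are FPKM, which scale the fragments of a gene by its exon length and by the mapped fragments of the sample, so levels can be compared between genes. From the smallest steps between low values, the samples were estimated to hold between 4557575 and 7789610 mapped reads. All 8 OB markers were above 0 in all 6 samples, but their levels differed. *Col1a1*, whose promoter drives the reporter of the sort and whose level is therefore no check, had 14151 to 34157 FPKM. The transcription factor gene *Sp7* had 73.7, 51.1 and 40.1 FPKM on day 10 and 9.79, 27.9 and 4.09 FPKM on day 14. *Dlx5* had 9.88, 8.19 and 7.56 FPKM and then 0.979, 9.84 and 1.01 FPKM, and the bone matrix gene *Ibsp* had 25254, 15910.0 and 10072 FPKM and then 3460.1, 15632 and 1293 FPKM. Replicates 1 and 3 of day 14 were thus low in these 3 genes. The day 14 samples also differed in other markers. Over 12 chondrocyte markers, replicate 2 summed to 2360 FPKM, replicates 1 and 3 to 181.6 and 161.3 FPKM, and the day 10 samples to 691 to 1345 FPKM. Myeloid markers summed to 11.8 FPKM in day 14 replicate 2, against 263 and 617 FPKM in the other day 14 samples and 35.7 to 148.5 FPKM on day 10. The summed OB markers were lowest in day 14 replicates 1 and 3, at 19921 and 15779 FPKM, against 38799 FPKM in replicate 2. These sums are mostly *Col1a1* and *Ibsp* and are therefore no separate check. *Col1a1* alone had 15729.5, 21087.7 and 14150.9 FPKM in day 14 replicates 1, 2 and 3. In bulk samples, fewer cells of a type and less RNA per cell cannot be told apart.

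The set spanned more than 2 orders of magnitude on a scale that is comparable between genes. *Ly6a* was the highest member in all 6 samples and *Pdgfrb* the second, with mean levels of 406 and 72.5 FPKM over the 6 samples. *Pdgfra* (34.0 FPKM), *Prrx1* (27.3 FPKM) and *Cspg4* (21.3 FPKM) followed, and their ranges over the samples overlapped. *Thy1* (9.41 FPKM) and *Lepr* (8.01 FPKM) also overlapped each other. *Mcam* (1.28 FPKM), *Nes* (1.12 FPKM) and *Rgs5* (0.932 FPKM) formed the low end and could not be ordered, since a different one of them was the lowest member from sample to sample. Ordered by mean FPKM among all listed genes, *Ly6a* ranked 127, *Pdgfrb* 834 and *Rgs5* 11353. In day 14 replicate 3 *Lepr* also came down to 1.34 FPKM, below *Mcam*.

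**Figure D1:**
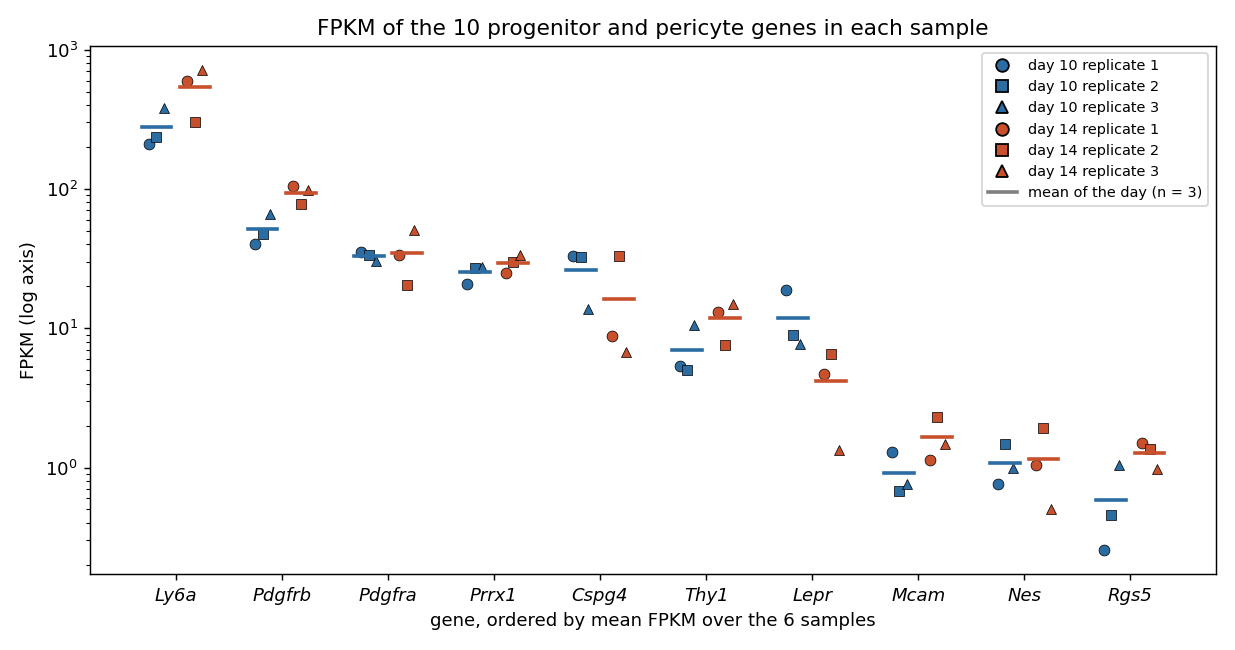
FPKM on a log axis for each of the 10 genes in each of the 6 samples, with day 10 in blue, day 14 in red, a symbol for each replicate and a bar at the mean of each day (n = 3). *Ly6a* lies between 209 and 714 FPKM in every sample, whereas *Mcam*, *Nes* and *Rgs5* lie between 0.255 and 2.32 FPKM. Only for *Pdgfrb* and *Lepr* are the days fully apart.

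Genes were compared between the days with limma on log2(FPKM + 0.1), with Benjamini-Hochberg adjustment over the 19526 genes whose mean was above 0.1 FPKM, and all 10 members passed this filter. None of the 10 had an adjusted p under 0.05 from limma, as for all but 0.0154% of the genes tested. Of the 10, 3 had an unadjusted limma p under 0.05, where 10.0% of all genes tested did. *Pdgfrb* and *Ly6a* were higher on day 14, as 5.6% of all genes tested were with such a p, and *Lepr* was lower, as 4.4% were. The days did not overlap for 2 of 10 members, *Pdgfrb* higher and *Lepr* lower on day 14, where 14.3% of all genes tested had separate days (7.59% higher and 6.67% lower). The fold change was over 2 in 2 of 10 members, *Rgs5* higher and *Lepr* lower, where 13.6% of all genes tested were over 2-fold (5.25% higher and 8.39% lower). With 10 genes each count lay within 2 genes of the background share. The mean log2 value was higher on day 14 in 6 of 10 members, against 46.5% of all genes tested. The median log2 fold change over the members was 0.50, and that over all genes tested was −0.04. The number of members with an unadjusted limma p under 0.05 rested on single samples. It was 1, *Pdgfrb*, when replicate 1 or 2 of day 10 or replicate 1 or 3 of day 14 was left out, and 5 without replicate 3 of day 10 or replicate 2 of day 14.

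**Figure D2:**
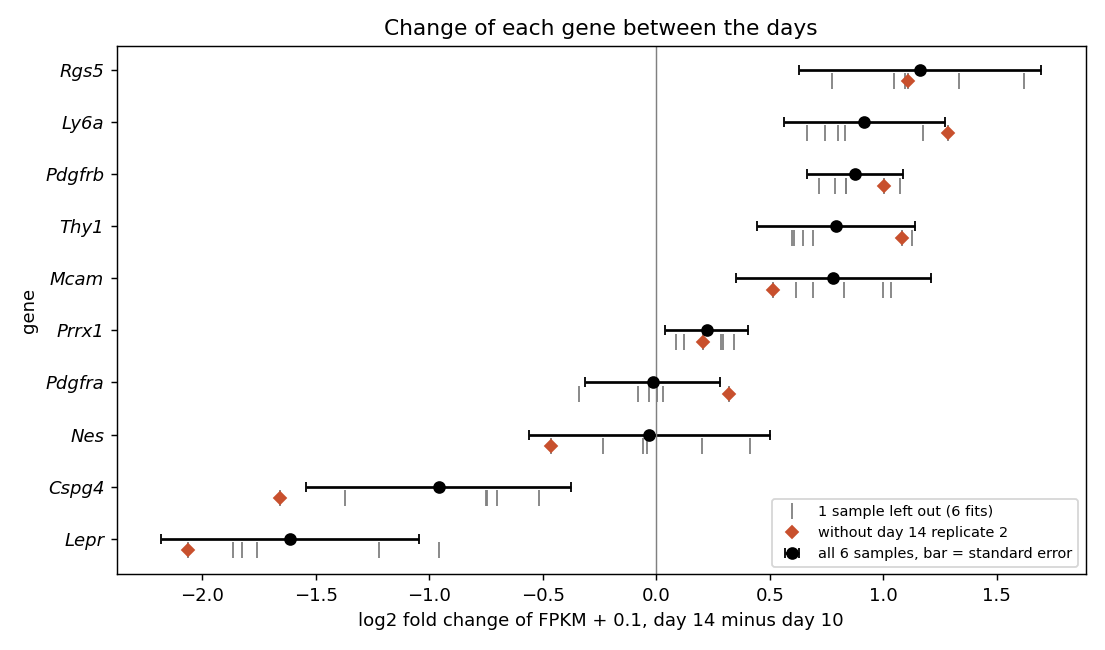
Log2 fold change of FPKM + 0.1 (day 14 minus day 10, x axis) for each gene, with the standard error from limma as a bar, and below it the estimates with each of the 6 samples left out as grey ticks. The red diamond is the fit without day 14 replicate 2. *Pdgfrb* stays between 0.72 and 1.07 in the left-out fits, while *Pdgfra* and *Nes* fall on both sides of 0.

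Of the receptors, *Pdgfrb* encodes the receptor for PDGF-BB, the signal that recruits pericytes and mesenchymal cells. It had 40.5, 47.8 and 66.6 FPKM in day 10 replicates 1, 2 and 3, and 104.7, 77.8 and 97.9 FPKM in day 14 replicates 1, 2 and 3. The lowest day 14 value exceeded the highest of day 10. The day means were 51.6 ± 13.4 FPKM (SD, n = 3) on day 10 and 93.4 ± 14.0 FPKM (SD, n = 3) on day 14. The fold change was 1.83, with a log2 fold change of 0.88 (standard error, SE, 0.21, limma adjusted p = 0.305). The unadjusted p from limma was 0.00309 and stayed under 0.05 in all 15 alternative fits that give a p, while the adjusted p ranged from 0.175 to 0.976. A two-sided exact permutation test gave p = 0.1, the smallest that 3 samples against 3 allow. Without day 14 replicate 2 the log2 fold change was 1.00. *Pdgfrb* lies on chromosome 18 from 61045150 to 61085061 of mm10 and is protein-coding.

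*Pdgfra*, the receptor that marks fibroblast-like and skeletal progenitors, showed no such difference. Its levels were 35.1, 33.8 and 30.2 FPKM on day 10 and 33.3, 20.4 and 51.0 FPKM on day 14. The day 10 samples lay close together, whereas the lowest and the highest value of the 6 samples were both found on day 14. The log2 fold change was −0.02 (SE 0.30, limma adjusted p = 0.994). It changed its sign with the sample left out, and was 0.32 without day 14 replicate 2. *Pdgfrb* exceeded *Pdgfra* in all 6 samples, by 1.154, 1.413 and 2.202 times on day 10 and by 3.14, 3.82 and 1.92 times on day 14. These ratios overlapped between the days (two-sided exact permutation test on the log2 ratio, p = 0.2, chosen after the values were seen). *Pdgfra* lies on chromosome 5 from 75152292 to 75198215, and 6.50% of its exonic bases overlap exons of other annotated genes.

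*Lepr*, the leptin receptor gene that marks stromal progenitors of adult marrow, was the member with the lowest log2 fold change. It had 18.8, 8.91 and 7.70 FPKM on day 10 and 4.71, 6.57 and 1.34 FPKM on day 14. The highest day 14 value was below the lowest of day 10, and the extremes were replicate 1 of day 10 and replicate 3 of day 14, which differed 14.0-fold. The mean level was 11.8 ± 6.11 FPKM (SD, n = 3) on day 10 and 4.21 ± 2.65 FPKM (SD, n = 3) on day 14. On the log scale this was a 3.06-fold lower level (log2 fold change −1.61, SE 0.57, limma adjusted p = 0.404). The two-sided exact permutation test gave p = 0.1. The unadjusted limma p was 0.0207 with all 6 samples, and exceeded 0.05 without day 10 replicate 1 (0.109), day 10 replicate 2 (0.0547), day 14 replicate 1 (0.0608) or day 14 replicate 3 (0.0517). The log2 fold change was −0.96 without day 14 replicate 3 and −2.06 without day 14 replicate 2. *Lepr* lies on chromosome 4 from 101717404 to 101815352. GENCODE lists 7 transcripts for it, and which of them its FPKM pools is not given in the sources used here.

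Among the surface antigens, *Ly6a* encodes Sca-1, a small GPI-anchored protein of stem and progenitor cells. It had 209, 237 and 382 FPKM on day 10 and 591, 302 and 714 FPKM on day 14. Replicates 1 and 3 of day 14 were above all other samples, and replicate 2 lay below day 10 replicate 3. The day means were 276 ± 92.8 FPKM (SD, n = 3) and 536 ± 211 FPKM (SD, n = 3). The log2 fold change was 0.92 (SE 0.36, limma adjusted p = 0.445, unadjusted p = 0.0313). The two-sided exact permutation test gave p = 0.2. Without day 14 replicate 2 the log2 fold change was 1.28 (limma adjusted p = 0.178), and the adjusted p over all alternatives ran up to 0.976. The unadjusted limma p exceeded 0.05 without day 10 replicate 1 or 2 (0.137 and 0.122) or day 14 replicate 1 or 3 (0.141 and 0.125). *Ly6a* lies on chromosome 15 from 74994877 to 74998031, and 6.33% of the 75-base words of its transcripts also occur in *Ly6c1* or *Ly6i*, so reads can be shared between them.

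*Thy1*, another GPI-anchored antigen, found on fibroblasts, mesenchymal progenitors, T cells and neurons, followed a profile close to that of *Ly6a*. It had 5.34, 4.996 and 10.5 FPKM on day 10 and 13.2, 7.61 and 14.8 FPKM on day 14. The same order of replicates 1, 2 and 3 within day 14 was seen as for *Ly6a*, with replicate 2 lowest and replicate 3 highest. The ratio of *Ly6a* to *Thy1* ranged from 36.4 to 48.2 over the 6 samples. This narrow range restates the close profiles and is no separate result. The profiles of *Parp9* and *Nhsl2* lay nearer to *Thy1* than that of *Ly6a* did. The log2 fold change of *Thy1* was 0.79 (SE 0.35, limma adjusted p = 0.500, unadjusted p = 0.0508), and it was 1.08 without day 14 replicate 2. With 1 sample left out it ran from 0.60 to 1.13, and the unadjusted limma p was under 0.05 in 2 of these 6 fits. *Thy1* lies on chromosome 9 from 44043384 to 44048579.

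Other Ly6 family genes were listed beside *Ly6a*. *Ly6c1* had 29.9, 44.1 and 64.8 FPKM on day 10 and 93.5, 43.9 and 161.7 FPKM on day 14, and *Ly6e* had 108.5, 100.1 and 160.04 FPKM on day 10 and 219.1, 124.8 and 293.2 FPKM on day 14. Both had their highest value in replicate 3 of day 14, as *Ly6a* and *Thy1* had. *Ly6e* was the only one of the 9 tested family members with an unadjusted p under 0.05 from limma (log2 fold change 0.73). Over all genes tested, 5.6% were higher with such a p. The median log2 fold change of the 9 was 0.42. It was −0.13 without day 10 replicate 1 or 2 and −0.21 without day 14 replicate 2. *Ly6c2* had a mean of 0.921 FPKM, and the remaining family members lay below it.

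Markers of blood cells are given beside these antigens. The highest were *Lyz2*, *C1qb* and *Tyrobp* of the myeloid list and *Cd2*, *Lck* and *Ms4a1* of the lymphocyte list. Myeloid markers (12 genes) summed to 35.7, 148.5 and 126.2 FPKM on day 10 and to 263, 11.8 and 617 FPKM on day 14. *Lyz2* was the largest part of these sums, with 18.5, 71.9 and 83.3 FPKM on day 10 and 160.4, 6.35 and 454.3 FPKM on day 14. Lymphocyte markers (10 genes) summed to 3.21, 4.08 and 3.44 FPKM on day 10 and to 11.9, 1.53 and 10.5 FPKM on day 14, and *Ptprc*, which encodes CD45, was at 0.134 to 2.99 FPKM. None of the 12 myeloid or 10 lymphocyte markers had an unadjusted p under 0.05 from limma, and their median log2 fold changes were 0.58 and 0.69. These medians rested on single samples: the myeloid median was −0.48 without day 14 replicate 3, −0.06 without day 14 replicate 1, 0.01 without day 10 replicate 1 and 2.10 without day 14 replicate 2, and the lymphocyte median ran from 0.15 without day 14 replicate 1 to 1.38 without day 14 replicate 2. In day 14 replicate 2, where the myeloid sum was lowest, *Ly6a* was at 302 FPKM and *Thy1* at 7.61 FPKM. The part of blood cell RNA in the values of *Ly6a* and *Thy1* was not tested.

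*Cspg4*, which encodes the proteoglycan NG2 of pericytes and chondrocytes, divided the samples in another way. It had 32.7, 32.5 and 13.7 FPKM on day 10 and 8.75, 33.2 and 6.75 FPKM on day 14. Day 14 replicate 2 was as high as the highest day 10 samples, and replicates 1 and 3 of day 14 were the lowest of all. The log2 fold change was −0.96 (SE 0.58, limma adjusted p = 0.643). Without day 14 replicate 2 it was −1.66 with an unadjusted p from limma of 0.00538 (adjusted p = 0.193). It was −0.70 without day 14 replicate 1 and −0.52 without day 14 replicate 3. Without day 10 replicate 1 or 2 it was −0.75, and without day 10 replicate 3 it was −1.37. The unadjusted limma p was under 0.05 in 1 of the 6 fits with a sample left out. Over all alternatives the adjusted p was between 0.193 and 0.995. *Cspg4* lies on chromosome 9 from 56865033 to 56899870.

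Several cartilage and OB markers were likewise lowest in replicates 1 and 3 of day 14. The chondrocyte gene *Col2a1* had 373, 321 and 188.6 FPKM on day 10 and 12.1, 688 and 8.75 FPKM on day 14. *Comp*, also a cartilage matrix gene, had 767, 640 and 359 FPKM on day 10 and 117.8, 1383 and 99.8 FPKM on day 14. *Alpl*, the phosphatase of mineralizing cells, had 1129, 1055 and 809 FPKM and then 272.7, 1300 and 185.6 FPKM. Of the 12 chondrocyte markers, 3 had an unadjusted limma p under 0.05, namely *Col9a1*, *Col9a3* and *Lect1*, all lower on day 14, with a median log2 fold change of −1.76 over the list. It was −0.77 without day 14 replicate 3 and −3.00 without day 14 replicate 2. The third highest gene of that list, the transcription factor gene *Sox9*, had a mean of 41.1 FPKM and a log2 fold change of 0.08. Of the 8 OB markers, 2 had such a p, the transcription factor genes *Sp7* and *Dlx5*, both lower on day 14, with a median log2 fold change of −1.49, which was −0.78 without day 14 replicate 3 and −2.19 without day 14 replicate 2. Over all genes tested, 5.6% were higher and 4.4% lower with such a p, and the median was −0.04. The part of cartilage cells in the values of *Cspg4* was not tested.

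**Figure D3:**
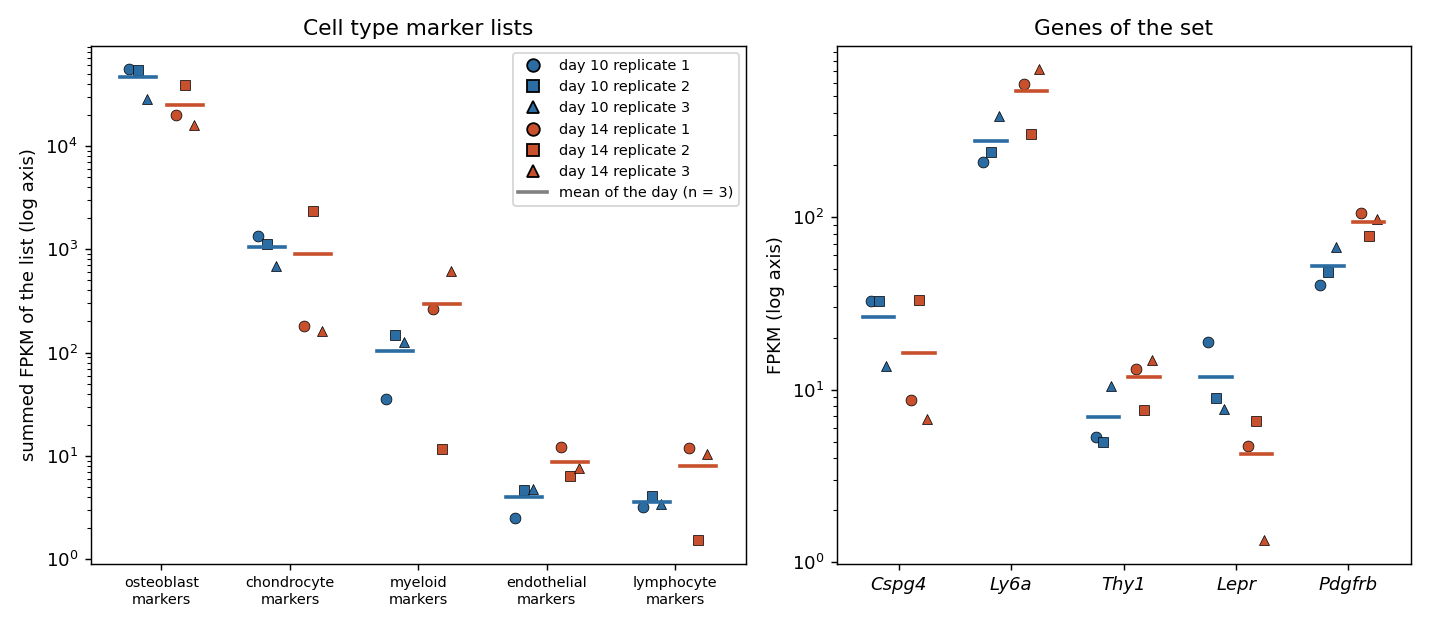
Left, summed FPKM (log axis) of 5 lists of cell type markers in each sample; right, FPKM (log axis) of 5 genes of the set, with symbols for replicates and bars for day means (n = 3). *Cspg4* and the chondrocyte sum are both high in day 14 replicate 2 (33.2 and 2360 FPKM), where the myeloid and lymphocyte sums are lowest (11.8 and 1.53 FPKM). The OB sum is mostly *Col1a1*, whose promoter drives the reporter, and *Ibsp*.

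*Prrx1*, a homeobox transcription factor of limb and craniofacial mesenchyme and of skeletal progenitors, was the steadiest member. It had 20.8, 27.3 and 27.6 FPKM on day 10 and 24.7, 29.9 and 33.6 FPKM on day 14, a 1.62-fold range over the 6 samples. The days overlapped, and the log2 fold change was 0.22 (SE 0.18, limma adjusted p = 0.765). Its paralogue *Prrx2* was about as steady and higher, with 41.0 to 67.8 FPKM and a log2 fold change of 0.09. *Prrx1* lies on chromosome 1 from 163245119 to 163313710.

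Of the pericyte genes in the set, *Rgs5*, *Mcam* and *Nes* were low and rested on few reads, unlike *Pdgfrb* and *Cspg4*. *Rgs5*, a regulator of G-protein signalling and a leading pericyte marker, had 0.255, 0.454 and 1.04 FPKM on day 10 and 1.502, 1.368 and 0.972 FPKM on day 14. These values correspond to about 4.85 to 31.5 reads if the longest annotated transcript is taken, so the log2 fold change of 1.16 (SE 0.53, limma adjusted p = 0.521) rested on few reads. Only day 10 replicate 3 reached into the day 14 values. *Mcam*, an adhesion molecule of endothelium and perivascular cells, had 1.29, 0.677 and 0.765 FPKM on day 10 and 1.14, 2.32 and 1.48 FPKM on day 14. It rested on about 10.3 to 38.2 reads, and its log2 fold change was 0.78 (SE 0.43, limma adjusted p = 0.602). *Nes*, an intermediate filament gene of neural and perivascular progenitors, had 0.758, 1.47 and 0.997 FPKM on day 10 and 1.03, 1.94 and 0.502 FPKM on day 14. *Nes* rested on about 20.9 to 67.9 reads. Its log2 fold change was −0.03 (SE 0.53, limma adjusted p = 0.994) and changed sign with the sample left out. *Rgs5* lies on chromosome 1 from 169655501 to 169695813, *Mcam* on chromosome 9 from 44134469 to 44142727 and *Nes* on chromosome 3 from 87971078 to 87980451.

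Endothelial markers, led by *Tek*, *Esam* and *Egfl7*, were low. The 12 markers summed to 2.51, 4.71 and 4.82 FPKM on day 10 and to 12.2, 6.43 and 7.64 FPKM on day 14, so that the days were apart. Of the 11 tested, all had a higher mean log2 value on day 14, against 46.5% of all genes tested. Singly, 3 of the 11 were higher with separate days, where 7.59% of all genes tested were. The median log2 fold change was 0.88, and 0.41 with a pseudocount of 1, at levels close to the limit of the depth. *Esam* and *Emcn*, 2 of 11, had an unadjusted p under 0.05 from limma, where 5.6% of all genes tested were higher with such a p. This count was 0 without day 14 replicate 1. The junction gene *Cdh5* was at 0.0540 to 0.752 FPKM, and no endothelial marker was at 0 in all samples. The part of vessel cells in the values of *Rgs5*, *Mcam* and *Pdgfrb* was not tested. Schwann cell and glial markers (8 genes, 10.2 to 19.7 FPKM in sum) were mostly *Cnp*, followed by *Mbp* and *S100b*. Skeletal muscle markers (8 genes, 0.304 to 9.04 FPKM in sum) were led by *Acta1*, *Tnnt3* and *Myh4*. The sum of 9.04 FPKM was that of day 10 replicate 1, where *Acta1* alone had 8.33 FPKM. Only 7 glial and 2 muscle markers passed the filter and were tested. None of those tested had an unadjusted p under 0.05 from limma. *Sox10*, the defining glial factor, stayed at or below 0.0873 FPKM.

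The promoter sequences of 3 members are shown, namely *Lepr* and *Cspg4*, the members above 5 FPKM with the widest ranges of level over the samples, and *Prrx1*, which had the narrowest. RefSeq sequences of build GRCm38.p6 were matched for 7 of the 10 members, and *Pdgfrb*, *Ly6a* and *Thy1* were not among them. Each is given 5′ to 3′ on the strand of the gene, from 250 bases before the RefSeq start up to the first exon base in GENCODE. Capitals mark a CCAAT box or a GC box (GGGCGG), on either strand.
*Lepr*, chr4:101717157-101717403, plus strand: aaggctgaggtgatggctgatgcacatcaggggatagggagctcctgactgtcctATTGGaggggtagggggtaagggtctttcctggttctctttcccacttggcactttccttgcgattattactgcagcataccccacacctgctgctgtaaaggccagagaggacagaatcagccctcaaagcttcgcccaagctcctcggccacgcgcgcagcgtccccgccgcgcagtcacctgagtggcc
*Cspg4*, chr9:56864854-56865032, plus strand: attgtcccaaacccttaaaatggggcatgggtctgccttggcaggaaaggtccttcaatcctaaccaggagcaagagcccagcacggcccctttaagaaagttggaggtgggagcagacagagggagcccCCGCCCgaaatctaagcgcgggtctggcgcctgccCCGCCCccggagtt
*Prrx1*, chr1:163313711-163313900, minus strand: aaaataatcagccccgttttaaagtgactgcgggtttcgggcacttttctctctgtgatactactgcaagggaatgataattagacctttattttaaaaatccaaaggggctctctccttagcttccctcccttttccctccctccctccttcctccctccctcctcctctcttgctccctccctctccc

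In the 250 bases before these RefSeq starts, the window of *Lepr* shown held 1 CCAAT box and *Cspg4* 2 GC boxes, and *Prrx1* held neither. CCAAT was found in 33.8% and GGGCGG in 32.7% of the 32851 promoter windows of the same length. TATAAA and the RUNX core TGTGGT, found in 12.4% and 14.0% of all windows, were in none of the 8 windows of the 7 members. *Prrx1* had 4 CpG dinucleotides in its window, *Lepr* 10 and *Cspg4* 12, and the median over all windows was 6. *Pdgfra* and *Rgs5*, whose levels ranged 2.51-fold and 5.89-fold over the samples, also had 4. *Mcam* had the most CpG among the members (25) with 5 GC boxes, although it was one of the members with the lowest FPKM. A match of letters is a description and not a site of binding.

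The ligands and adaptors of the PDGF receptors were examined beside them. Of 12 genes, 1 was higher on day 14 with an unadjusted p under 0.05 from limma and none was lower, where 5.6% of all genes tested were higher and 4.4% lower, and the median log2 fold change was 0.12. That gene was *Nrp1*, a co-receptor for several growth factors, with 11.5, 11.8 and 15.05 FPKM on day 10 and 22.8, 18.8 and 21.1 FPKM on day 14 (log2 fold change 0.71, limma adjusted p = 0.305). *Pdgfa*, a ligand of *Pdgfra*, had 75.3, 53.8 and 35.3 FPKM on day 10 and 21.9, 55.7 and 26.9 FPKM on day 14, a log2 fold change of −0.71 (limma adjusted p = 0.593). *Pdgfb*, a ligand of *Pdgfrb* that is made by endothelium, was at 0.0616 to 0.320 FPKM in all 6 samples. The other PDGF ligand genes of the list, *Pdgfc* and *Pdgfd*, were at 12.6 to 26.4 and 11.8 to 26.4 FPKM. *Pdgfrl*, a receptor-like gene, was the highest of the list at 268 to 320 FPKM, and *Shc1*, an adaptor, had 23.1 to 34.7 FPKM.

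In a list of 20 other skeletal progenitor genes, 19 were tested and *Ngfr* was listed at 0 in every sample. On day 14, 6 were higher and 1 was lower with an unadjusted p under 0.05 from limma, and the median log2 fold change was 0.56. Over all genes tested, 5.6% were higher and 4.4% lower with such a p, and the median was −0.04. The list was chosen with earlier results of these data known. None had an adjusted p under 0.05. *Cxcl12*, the chemokine of marrow stromal cells, had 113.9, 133.6 and 196.4 FPKM on day 10 and 549.3, 217.5 and 378.9 FPKM on day 14 (log2 fold change 1.31, limma adjusted p = 0.319). *Ebf1*, a transcription factor of marrow stroma, had 20.5, 24.7 and 29.6 FPKM and then 44.8, 42.6 and 39.4 FPKM (log2 fold change 0.77, limma adjusted p = 0.297). Both had separate days, as had *Ctsk*, a protease gene of osteoclasts and periosteal progenitors, with 414 ± 11.4 FPKM on day 10 and 596 ± 20.1 FPKM on day 14 (SD, n = 3 each). *Cxcl12*, *Ebf1* and *Ctsk* kept an unadjusted p under 0.05 with any 1 sample left out, whereas *Cd34*, *Vcam1*, *Pdpn* and *Cd200* did not. *Vcam1*, an adhesion gene, had 53.7, 62.5 and 103.4 FPKM and then 161.7, 100.9 and 212.4 FPKM, and *Pdpn*, a mucin-type gene, 62.6, 70.2 and 79.6 FPKM and then 103.2, 75.5 and 158.5 FPKM. *Cd34*, an antigen of progenitors and endothelium, had 13.9, 18.8 and 39.2 FPKM and then 44.4, 26.7 and 98.4 FPKM, with day 14 replicate 3 highest as for *Ly6a*. *Cd200*, the gene that was lower, had 143.9, 108.8 and 56.0 FPKM and then 33.1, 80.3 and 13.8 FPKM, with replicates 1 and 3 of day 14 lowest as for *Cspg4*. The count was 10 of 19 without day 14 replicate 2 and 3 of 19 without day 10 replicate 1.

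The other pericyte and mural cell genes differed widely in level. *Acta2* (235.7 to 594 FPKM), *Tagln* (79.4 to 190.1 FPKM) and *Ndufa4l2* (44.0 to 107.3 FPKM) were the 3 highest. The smooth muscle myosin *Myh11* was at 0.185 to 0.650 FPKM, the pericyte channel subunits *Kcnj8* and *Abcc9* were at 0.170 to 1.44 and 0.141 to 1.09 FPKM, and *Higd1b* was listed at 0 in 5 of the 6 samples. Of the 13 genes tested, 2 were higher on day 14 with an unadjusted p under 0.05 from limma and none was lower, where 5.6% of all genes tested were higher and 4.4% lower, and the median log2 fold change was 0.33. *Notch3*, the Notch receptor of mural cells, had 0.976, 2.49 and 1.84 FPKM on day 10 and 3.67, 4.81 and 3.60 FPKM on day 14 (log2 fold change 1.22, limma adjusted p = 0.347). *Anpep*, an aminopeptidase of pericytes and myeloid cells, had a log2 fold change of 1.18 with overlapping days. Without day 10 replicate 3, in which *Acta2* and *Tagln* were at 594 and 167.3 FPKM, 5 of the 13 were higher with such a p and the median was 0.72. The count was 1, *Notch3*, without day 10 replicate 1, day 10 replicate 2 or day 14 replicate 1, and the median was 0.15 without day 10 replicate 2 and 0.22 without day 14 replicate 3.

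**Figure D4:**
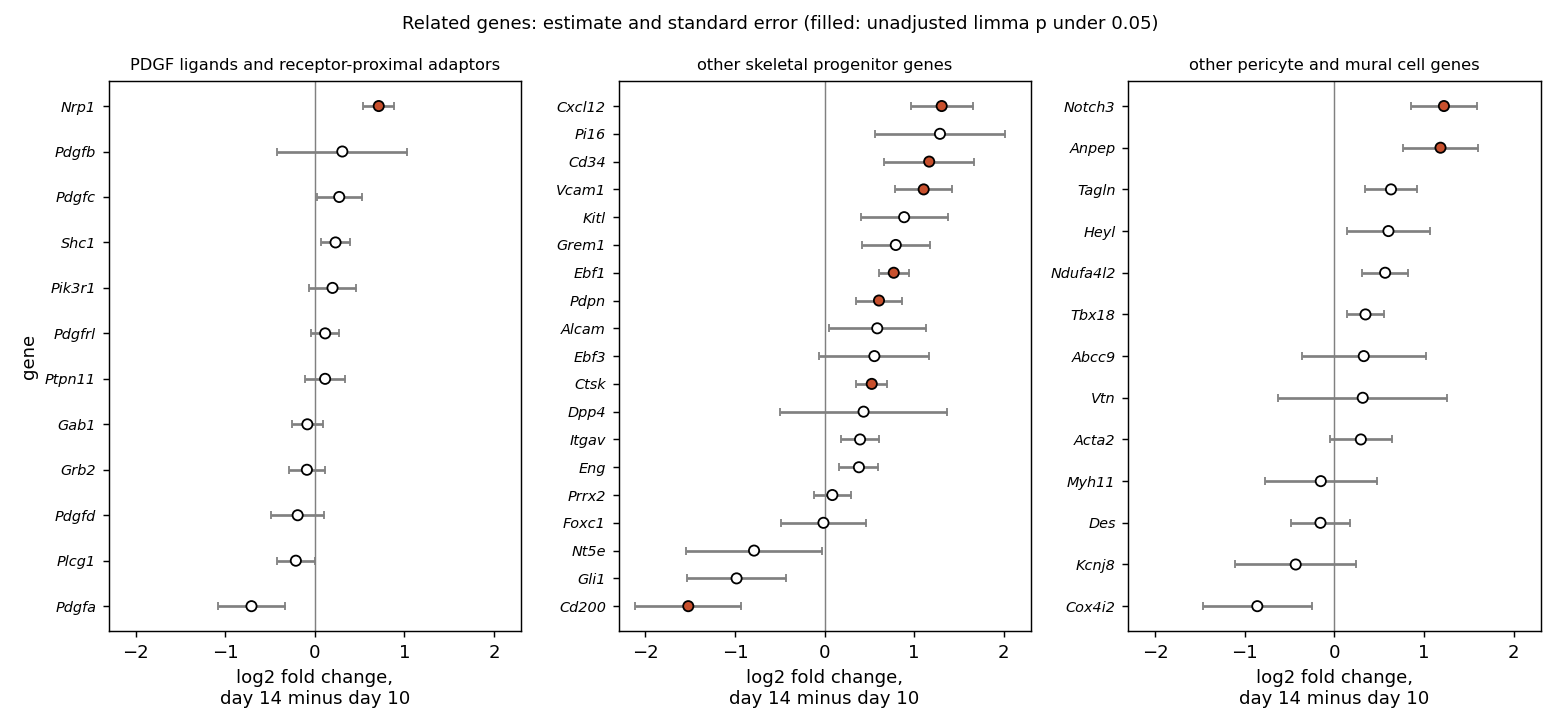
Log2 fold change of FPKM + 0.1 (day 14 minus day 10, x axis) with its standard error for the tested genes of 3 related lists; filled points have an unadjusted limma p under 0.05. The filled points are *Nrp1* in the PDGF list, 6 positive and 1 negative in the progenitor list, and *Notch3* and *Anpep* in the pericyte list.

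Genes with the most similar profile over the 6 samples were sought for each member among those with a mean of at least 1 FPKM, as the smallest root mean square difference of centred log2(FPKM + 0.1). The nearest to *Pdgfrb* were *Ctps2* (0.0546) and *Sat1* (0.0553), which like it were higher in every day 14 sample. The nearest to *Ly6a* were *Mgst1* (0.0502) and *Il15ra* (0.0855), and its nearest member was *Thy1* (0.152). For *Cspg4* they were *Vdr*, the vitamin D receptor gene (0.166), and *Omd*, a bone matrix proteoglycan gene (0.183), and no member came nearer to it than *Lepr* (0.671). The nearest to *Lepr* were *2900076A07Rik* (0.167) and *Fam46c* (0.189), and to *Thy1* *Parp9* (0.112) and *Nhsl2* (0.115). The nearest to *Pdgfra* were *Bud13* (0.105) and *Zfp110* (0.119), to *Prrx1* *Fam162a* (0.0376) and *Hnrpdl* (0.0388), and to *Mcam* *Matn4* (0.141) and *Gm6568* (0.147). The nearest to *Nes* were *Mgll* (0.136) and *Cd244* (0.161), and to *Rgs5* *Tuba4a* (0.157) and *Nexn* (0.206). With 6 samples and over 11161 genes searched, small differences are found for most profiles.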

How the data were processed

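RNA of sorted ECFP+ OBs was amplified with a SMART-Seq kit and sequenced as 75-base single-end reads. The authors mapped the reads to mm10 with TopHat2 2.0.13, Bowtie2 2.2.3 and SAMtools 0.1.19, and the deposited FPKM of each sample, 1 for every gene, came from Cufflinks 2.2.1. The gene annotation, the strand setting and the handling of multi-mapped reads are not given in the sources used here. In the file of day 14 replicate 2, 25 symbols had been turned into dates and were restored by position.

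FPKM were used as deposited. Genes with a mean above 0.1 FPKM were compared with limma 3.58.1 in R 4.3.3 on log2(FPKM + 0.1), moderated along the mean-variance trend, with the day as the only factor and Benjamini-Hochberg adjustment over 19526 genes. The understatement of changes in low genes by the pseudocount applies to *Rgs5*, *Mcam* and *Nes*. Single values were compared with two-sided exact permutation tests (scipy 1.17.1). The fit was tested on simulated data. The limma p-values set the difference between the days against the moderated spread between the samples of a day. The permutation p-values rank that difference among all assignments of the 6 samples to the days.

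Depth was estimated from 1977 genes with 1 transcript of 1500 to 8000 bases at up to 0.3 FPKM and a fragment length of 220 bases; between 74.7% and 79.5% of these values came within 0.1 of a whole number of reads. At this depth, 3 reads on a kilobase correspond to 0.385 to 0.658 FPKM, for counting error only. Positions count from 1 and are those of GENCODE vM21 (mm10).

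The members and lists were chosen with earlier results of these data known. Named are all members, the 3 highest genes of each list and those with an unadjusted p under 0.05, the 2 nearest profiles of each member, and further list genes chosen after their values were seen. *Adgre1* and *Cnmd* were found under older symbols, and *Ly6g* is not analysed here.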

Additional observations from a re-analysis of the deposited data

How the results depend on the processing

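In the 15 alternative fits that give a p (14 for *Rgs5*), no member reached an adjusted p under 0.05 from limma. Under all 16 alternative settings, 8 of the 10 members kept the sign of their log2 fold change. That of *Pdgfra* became positive with the described day as a number (0.0499), as a ratio of arithmetic means (0.0793), and between −0.34 and 0.32 with 1 sample left out. That of *Nes* became positive with a pseudocount of 1 (0.0155) and as a ratio of arithmetic means (0.0961), and lay between −0.46 and 0.41 with 1 sample left out. The number of members with an unadjusted limma p under 0.05 was 1 without the mean-variance trend, 5 with the replicate number as a block, and 1 to 5 with 1 sample left out. The block added *Thy1* and *Cspg4*. Deviations from the day mean correlated across genes with r of −0.00584 to 0.0887 in same-numbered samples and −0.0978 to 0.0202 in others. With 3 samples a day, these values cannot decide whether the numbers pair the samples. The number of members over 2-fold was 1 with a pseudocount of 1, with a mean FPKM above 1 and with the described day, and 1 to 6 with 1 sample left out. Over all genes, those over 2-fold numbered 514 with a pseudocount of 1 and 5107 with a pseudocount of 0.01. They numbered 845 of 11162 tested with a mean FPKM above 1, where the main fit had 2665 of 19526. With the described day they numbered 1764, and with 1 sample left out 2616 to 4130. Genes with an unadjusted p under 0.05 numbered 948 to 2666 and those with an adjusted p under 0.05 numbered 3 to 8 with 1 sample left out. The cause of the differences with the described day or with 1 sample left out was not tested. Leaving out samples for the counts of the related lists was chosen after seeing the data. The scalings shifted the day difference by at most 0.05 on the log2 scale. Scaling to the FPKM sum without short genes left 2 members with an unadjusted limma p under 0.05, *Pdgfrb* and *Lepr*, with *Ly6a* at 0.0546 (adjusted p = 0.512), and put 3 members over 2-fold, *Cspg4* among them. *Rgs5* has no value with a mean FPKM above 1, and *Rgs5*, *Mcam* and *Nes* rested on few reads.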

Other observations

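Within each sample, the level of *Lepr* was set against that of *Pdgfrb*, a comparison chosen after the values were seen. The ratio was 0.465, 0.186 and 0.116 in day 10 replicates 1, 2 and 3 and 0.0450, 0.0845 and 0.0137 in day 14 replicates 1, 2 and 3. The days of each gene alone did not overlap, in opposite directions, so those of the ratio could not overlap either, and no test is given. Day 14 replicate 3 had the lowest ratio. A ratio within a sample does not depend on the scaling between samples. The ratio of *Cspg4* to *Pdgfrb* was 0.808, 0.681 and 0.205 on day 10 and 0.0836, 0.426 and 0.0689 on day 14, and overlapped between the days (two-sided exact permutation test on the log2 ratio, p = 0.2).

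*Pi16*, a gene of adventitial fibroblast progenitors, had 8.21, 12.7 and 27.9 FPKM on day 10 and 45.7, 10.7 and 87.4 FPKM on day 14, and *Dpp4*, another gene of such cells, had 0.726, 1.52 and 2.43 FPKM and then 1.61, 0.433 and 9.097 FPKM. Both were highest in day 14 replicate 3, where *Ly6a* and *Cd34* were also highest. Neither had an unadjusted p under 0.05 from limma over all 6 samples, and both were named after their values were seen.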
